A study of Mus musculus with 2 samples.

Results

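Early horizontal cells of the mouse eye cup at e15.5 were picked out of single-cell RNA profiles of 2 genotypes by the genes they expressed. A cell was taken when it held 1 or more unique molecular identifiers (UMIs, each marking 1 captured transcript) of Lhx1 and 1 or more UMIs of Onecut1, Onecut2, Prox1 or Tfap2b. Cells with any UMI of Pou4f2, a ganglion cell factor, or of Crx, a photoreceptor factor, were left out, as were those with 5 or more UMIs of the collagens Col1a2 and Col3a1 together. The rule was applied to cells with at least 200 genes, at least 2000 UMIs and at most 15% mitochondrial UMIs, and it left 197 horizontal cells of 20430 filtered cells and 26897 deposited barcodes. These were 94 of 9722 control cells and 103 of 10708 mutant cells. The selection used RNA alone, and all statements about the selection genes, or about how these cells stood apart from other cells, are descriptions of cells chosen on the same counts.

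The control was Myrf fl/fl, with loxP sites in both copies of Myrf and no Cre. The mutant library, Rx>cre Myrf fl/fl, had the same floxed alleles and Cre driven by regulatory sequence of Rx, which is active in the early eye field from which retina and pigment epithelium arise. Myrf encodes a membrane-bound transcription factor with known roles in pigment epithelium and in oligodendrocytes. Each library came from 3 pooled eye cups, from which cornea, lens and optic nerve had been removed, so the genotypes were compared 1 library against 1 with no replicate. Throughout, intervals are exact 95% intervals that cover counting error only, the genotype cannot be told apart from other differences between the pools, and no p-value is given.

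Horizontal cells are inhibitory interneurons of the outer retina that receive input from photoreceptors and feed back onto them. They are among the early-born retinal neurons. Foxn4 and then Ptf1a set progenitors towards the horizontal and amacrine fates, the Onecut factors and Prox1 act in horizontal cell genesis, and the AP-2 factors Tfap2a and Tfap2b are shared by horizontal and amacrine cells. Lhx1 separates horizontal cells from other retinal neurons and is needed for their place in the tissue. The calcium-binding protein calbindin (Calb1) and neurofilaments are used to label them later in life.

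The upstream sequences of 3 genes are shown because their transcripts frame the results: Lhx1 defines the cells, Tfap2b was among their most widely detected factors, and Ptf1a was lower in the mutant library and divided the cells of both. Sequences are from RefSeq on GRCm38.p6, 280 bases each, 250 before the transcript start and 30 after it, written 5′ to 3′ on the strand of the gene. They span chr11:84525505-84525784 for Lhx1 on the minus strand, chr1:19211804-19212083 for Tfap2b on the plus strand and chr2:19445413-19445692 for Ptf1a on the plus strand. Capitals mark a match, on either strand, to the core bound by Onecut factors (ATTGAT, read as ATCAAT on the other strand) or to the AP-2 core (GCCNNNGGC, which reads the same on both strands). The first occurs once in the Tfap2b window, the second once in the Ptf1a window, and neither in the Lhx1 window.
Lhx1: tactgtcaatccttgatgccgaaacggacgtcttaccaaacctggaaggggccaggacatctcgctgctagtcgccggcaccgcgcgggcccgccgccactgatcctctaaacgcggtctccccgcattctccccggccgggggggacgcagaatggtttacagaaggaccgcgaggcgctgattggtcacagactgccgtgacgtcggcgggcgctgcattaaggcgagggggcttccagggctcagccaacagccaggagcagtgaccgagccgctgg
Tfap2b: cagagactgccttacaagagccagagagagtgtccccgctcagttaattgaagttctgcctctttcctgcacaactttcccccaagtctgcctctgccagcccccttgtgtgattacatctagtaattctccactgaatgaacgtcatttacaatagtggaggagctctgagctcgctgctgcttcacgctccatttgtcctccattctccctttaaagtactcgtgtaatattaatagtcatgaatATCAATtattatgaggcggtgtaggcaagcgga
Ptf1a: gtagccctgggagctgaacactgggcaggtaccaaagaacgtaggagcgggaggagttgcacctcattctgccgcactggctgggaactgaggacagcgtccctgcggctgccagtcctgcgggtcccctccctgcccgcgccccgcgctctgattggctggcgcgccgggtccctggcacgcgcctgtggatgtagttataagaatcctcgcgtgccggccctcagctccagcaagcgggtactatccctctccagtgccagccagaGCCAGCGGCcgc

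The libraries were sequenced to like depth. They held 132436812 control and 135678970 mutant UMIs, and the filtered cells had a median of 11726 and 10521 UMIs. Horizontal cells held 2059 to 20262 UMIs in the control, with a median of 7581, and 2173 to 21413 in the mutant, with a median of 7124. Mitochondrial UMIs made up a median of 5.95% and 6.37% of their total. The libraries shared 69 barcode sequences, none of them a horizontal cell in both. The pools differed in sex composition: no control horizontal cell held a UMI of 4 Y-linked genes (0 of 94, which allows a share of cells with such a UMI of up to 3.19% at a floor of 3 counts and of up to 3.85% by the exact interval), whereas 57 of 103 mutant cells did (55.3%, interval 45.2 to 65.1). A UMI of Xist, transcribed from the inactive X, was found in 98.9% of control and 30.1% of mutant horizontal cells.

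The rule drew a narrow set. Of the filtered cells, 125 control and 134 mutant cells held Lhx1, and 117 and 127 of these also held a partner gene. Pou4f2 then removed 3 cells in each library, Crx removed 9 and 8, and collagen removed 11 and 13. Lhx1 was thin in the cells that remained. It was seen as a single UMI in 38 control and 37 mutant cells, as 2 UMIs in 28 and 31, and as 3 or more in 28 and 35, with a highest value of 15 and 16. Just outside the depth limit lay 4 cells in each library that met the gene rule, the deepest with 1884 and 1924 UMIs. The partner genes were denser, with 45 of 94 control and 49 of 103 mutant cells holding all 4 of them and only 4 control cells resting on 1 partner.

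At this age the horizontal cell label rested on transcription factors. Onecut2 had a median of 16.5 UMIs per control cell (0 to 54) and 15 per mutant cell (2 to 44), and Tfap2b a median of 8 (0 to 27) and 9 (0 to 32). Onecut2 and Tfap2b were found together in 87 of 94 control cells (92.6%, interval 85.3 to 97.0) and 102 of 103 mutant cells (99.0%, interval 94.7 to 99.98), although the rule asked for only 1 of 4 genes. Prox1 was found beside both in 74.5% and 84.5% of cells. Among erythroid cells, which should lack all these genes and give the level of free RNA, Lhx1 was found in 4 of 550 control cells (0.727%) and 0 of 504 mutant cells, Onecut2 in 2.18% and 4.96% and Tfap2b in 5.64% and 5.16%, at median depths of 17706 and 17250 UMIs. The erythroid rule did not ask for the absence of Lhx1, and 3 of its control cells were also horizontal cells. Without them the control shares were 1 of 547 cells (0.183%) for Lhx1, 1.65% for Onecut2 and 5.30% for Tfap2b. Onecut2 was not particular to horizontal cells, since 70.0% of control and 66.6% of mutant ganglion cells held it too, whereas Tfap2b was found in 3.56% and 3.36% of them. The ganglion cells were deeper, with a median of 14900 and 14878 UMIs against 7581 and 7124, so shares with a UMI are not like for like. By contrast, Calb1 gave 3 UMIs in all control horizontal cells and none in the mutant ones, and Sept4, a septin found in mature horizontal cells, gave 0 and 10 UMIs. The cells were therefore named from transcription factors and not from mature markers.

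**Figure D1:**
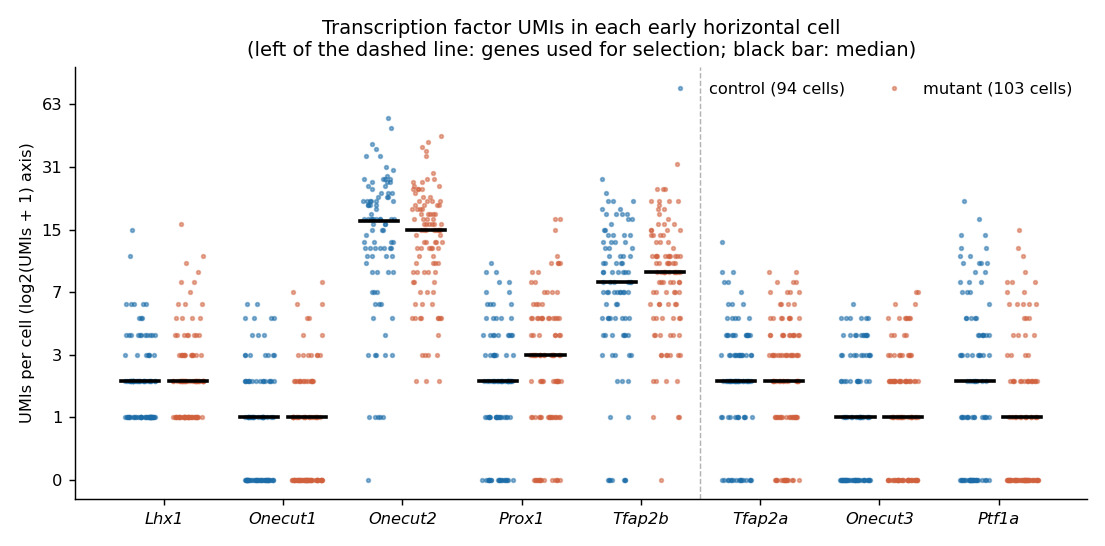
UMIs of 8 transcription factor genes in each horizontal cell (1 point per cell, 94 control and 103 mutant cells, log2(UMIs + 1) axis, black bar for the median). Onecut2 and Tfap2b, which the rule did not require singly, lay above 0 in nearly all cells of both libraries, with medians of 16.5 and 15 and of 8 and 9 UMIs, whereas Onecut1, Onecut3 and Ptf1a were at 0 in many cells.

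The share of horizontal cells was close in the libraries. They were 0.967% (interval 0.782 to 1.18) of filtered control cells and 0.962% (interval 0.786 to 1.17) of filtered mutant cells, and the ratio of mutant to control shares was 0.995 with an interval of 0.745 to 1.33. Over the retinal neuron classes, which are horizontal cells with ganglion cells, photoreceptor precursors and the few cells that met the amacrine rule, the shares were 10.7% and 9.79%, with a ratio of 0.912 (0.683 to 1.22). The amacrine rule held only 4 control and 6 mutant cells, so a class of cells with Ptf1a and no Lhx1 was added after the data were seen. It held 329 control and 491 mutant cells. Against that class, horizontal cells made up 22.2% and 17.3%, with a ratio of 0.780 (0.584 to 1.04), and against progenitors 4.09% and 3.16%, with a ratio of 0.773 (0.579 to 1.03). All these intervals include 1. That of the share of filtered cells reaches from 0.745 to 1.33, and differences within it were not detectable at this number of cells.

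Myrf itself was nearly absent from horizontal cells of either library, with 1 UMI in the control cells and 0 in the mutant cells. In progenitors, 1.32% of control and 0.476% of mutant cells held a Myrf UMI, against 0.909% and 0.397% in erythroid cells. The counts thus gave no check of the deletion in the horizontal cells themselves. Tmem98, which encodes a membrane protein that binds Myrf, had 27.3 UMIs per 1000000 UMIs of the cells (CPM) in control and 10.4 CPM in mutant horizontal cells (ratio 0.381, 0.146 to 0.896), on 21 and 8 UMIs. Without the cells in cycle described below, Tmem98 had too few UMIs to compare.

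The selection genes differed little between the libraries except Prox1. Lhx1 (chromosome 11, 84518284 to 84525535, minus strand, GRCm38) was at 299 CPM in control and 360 CPM in mutant cells, a ratio of 1.21 (1.01 to 1.44). Onecut1 was at 153 CPM in both (ratio 1.00, 0.769 to 1.30), in 56.4% and 50.5% of cells, and Onecut2 at 2017 and 2021 CPM (ratio 1.00, 0.933 to 1.08). Prox1, a homeobox factor (chromosome 1, 190118035 to 190170714, minus strand), was higher in the mutant, at 301 and 489 CPM, a ratio of 1.62 (1.37 to 1.92), with a UMI in 78.7% and 85.4% of cells. Tfap2b (chromosome 1, 19208914 to 19238576, plus strand) was at 1079 and 1308 CPM, a ratio of 1.21 (1.10 to 1.33). Without the cells in cycle described below, Prox1 kept a ratio of 1.56 and Tfap2b of 1.25.

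Across all genes with 20 or more UMIs over both libraries, 8146 were compared. Of these, 260 (3.19%) were 2-fold or more higher in mutant horizontal cells and 118 (1.45%) were 2-fold or more lower, and the median log2 ratio was 0.06. Many of these genes were sparse: with 50 or more UMIs, 61 of 5050 genes passed 2-fold. When the ratios were centred on their median, the split became 187 higher and 160 lower. Intervals lay wholly above 1 for 6.15% of the 8146 genes and wholly below 1 for 3.77%, which is the background for the gene groups that follow.

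Among 15 factors of horizontal and amacrine fate, 14 were compared, with 3 intervals above 1, 4 below 1, none past 2-fold higher and 3 past 2-fold lower (median log2 ratio -0.09). Ptf1a, the bHLH factor that directs both fates (chromosome 2, 19445663 to 19447501, plus strand), was lower in mutant horizontal cells. It stood at 435 CPM in control cells (0 to 21 UMIs per cell, median 2) and 265 CPM in mutant cells (0 to 15 UMIs, median 1), a ratio of 0.609 (0.509 to 0.727). A Ptf1a UMI was found in 66 of 94 control cells (70.2%, interval 59.9 to 79.2) and 55 of 103 mutant cells (53.4%, interval 43.3 to 63.3). The ratio of these shares was 0.761, with an interval of 0.522 to 1.10. That interval treats the cells as counts without an upper bound and is too wide for shares this large. Whether counting error alone allows equal shares is therefore not read from it. After every cell was thinned to 2000 UMIs the shares were 42.6% and 35.0%. Erythroid cells held a Ptf1a UMI in 1.64% and 2.58% of cells (1.46% in the control without the 3 shared cells), so the values in horizontal cells lay far above free RNA. Among the cells that held a UMI the median Ptf1a level was 422 CPM for the control and 321 CPM for the mutant library.

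Zfhx3, a zinc finger homeobox gene, was at 108 and 50.7 CPM (ratio 0.470, 0.313 to 0.696) and Zfhx4 at 52.0 and 20.8 CPM (ratio 0.400, 0.209 to 0.731), but among the cells that held Xist and lacked Y-linked transcripts the log2 ratio of Zfhx4 was -0.11 against -1.32 over all members. Dlx1, a homeobox factor of inhibitory neurons, was at 33.8 and 14.3 CPM (ratio 0.423, 0.189 to 0.887), but with 64.9% of its UMIs in the 5 richest cells. On the other side, Sall3, a zinc finger factor needed for horizontal cell maturation, was at 33.8 and 58.5 CPM (ratio 1.73, 1.05 to 2.92). Pax6 (ratio 1.17, 1.06 to 1.28) and Rorb (ratio 1.10, 1.01 to 1.19) were slightly higher. The AP-2 factor Tfap2a, at 325 and 373 CPM (ratio 1.15, 0.966 to 1.37), and Onecut3, at 195 and 227 CPM (ratio 1.17, 0.933 to 1.46), did not differ beyond counting error. Foxn4, which acts before Ptf1a in progenitors, was down to 13 and 11 UMIs, and Isl1 to 3 in each library.

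**Figure D2:**
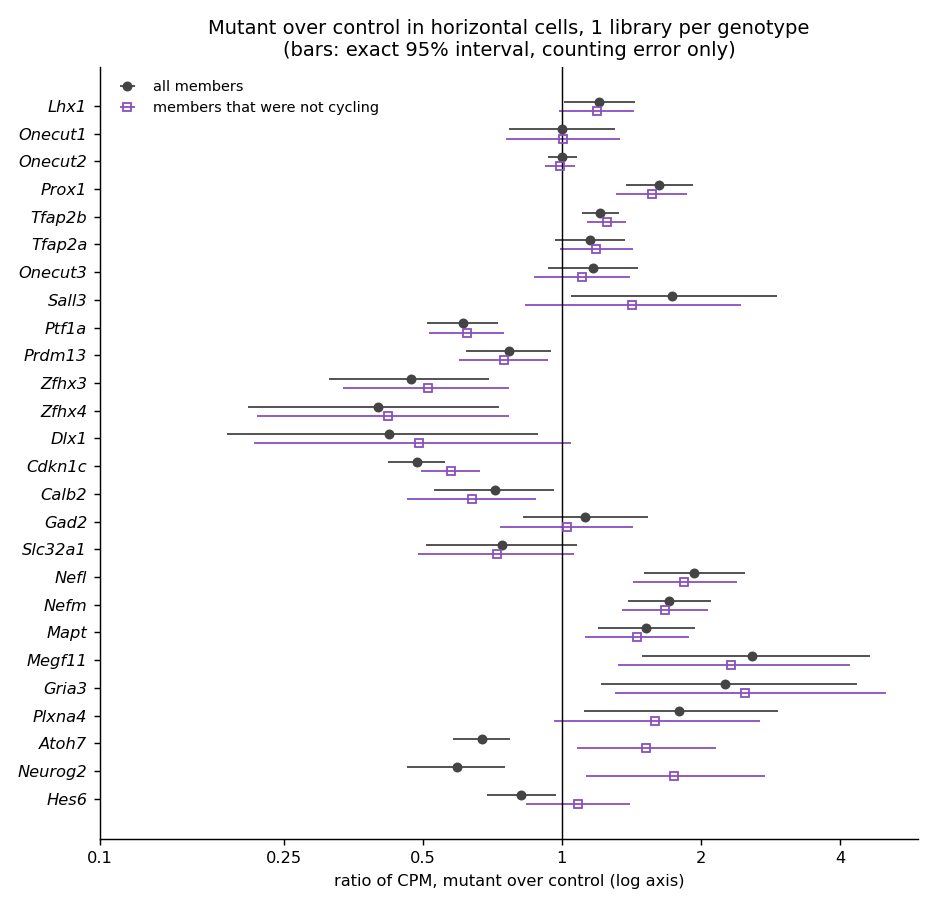
Ratio of CPM in mutant over control horizontal cells for the selection genes and members of the gene lists (log axis, bars for exact 95% intervals of counting error, 1 library per genotype), over all members (filled circles) and over members that were not cycling (open squares). Ptf1a (0.609), Zfhx3 (0.470) and Cdkn1c (0.485) lay below 1 and Prox1 (1.62), Nefl (1.93) and Megf11 (2.58) above 1 in both sets, whereas Atoh7 and Neurog2 lay on opposite sides of 1.

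Most genes on a list of horizontal cell differentiation were scarcely read at e15.5. Of 8 differentiation genes only 3 had enough UMIs to compare, with 0 intervals above 1 and 1 below 1 (median log2 ratio -0.09). Calb2, which encodes the calcium-binding protein calretinin, was at 145 and 104 CPM (ratio 0.715, 0.530 to 0.961) and was found in 34.0% and 28.2% of cells. As given below, it was carried mainly by members with a Ptf1a UMI, so it is not read here as a marker of mature horizontal cells. The anion exchanger Slc4a3 gave 16 and 15 UMIs. The connexin gene Gja10 gave 0 and 1 UMIs, and Adra2a and the heavy neurofilament gene Nefh gave none in either library.

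Genes of GABA synthesis and transport were read in part of the cells. Of 9 transmitter genes 4 were compared, and all 4 intervals included 1 (median log2 ratio 0.25). Gad2, which makes GABA, was at 105 and 118 CPM (ratio 1.12, 0.824 to 1.54), in 46.8% and 48.5% of cells, and Slc32a1, the vesicular GABA transporter, at 90.9 and 67.6 CPM (ratio 0.743, 0.509 to 1.08), in 44.7% and 35.9%. Erythroid cells held a UMI of Gad2 in 2.73% and 3.37% and of Slc32a1 in 0.364% and 0.198% of cells (2.74% and 0.183% in the control without the 3 shared cells), and ganglion cells held one of Gad2 in 45.1% and 48.1% and of Slc32a1 in 2.73% and 3.54%. Gad1, the other GABA-making enzyme, gave only 4 and 10 UMIs. The vesicular glutamate transporter genes Slc17a6 and Slc17a7 gave 2 and 0 UMIs and none, so the excitatory transmitter genes on the list were at or near 0.

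Receptors for input from photoreceptors were present in part. Of 14 receptor genes 7 were compared, 1 with an interval above 1 and past 2-fold higher, and none below (median log2 ratio 0.19). Gria2, an AMPA receptor subunit, was at 148 and 162 CPM (ratio interval 0.844 to 1.43), and Gria4 gave 24 UMIs in each library. Gria3, an AMPA subunit on the X chromosome, was at 20.8 and 46.8 CPM (ratio 2.25, 1.22 to 4.35). Grm6, the glutamate receptor of ON bipolar cells, had no UMI in either library, and Gria1, Grik1, Grik3, Grin1 and Grin2b had at most 3.

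Among 10 genes of cell spacing and arbor shape, 7 were compared, with 2 intervals above 1, none below 1 and 2 genes (Megf11 and Megf10) past 2-fold higher (median log2 ratio 0.34). Megf11, a surface receptor by which horizontal cells space themselves into a mosaic (chromosome 9, 64385626 to 64709205, plus strand), was at 24.7 CPM in control and 63.7 CPM in mutant cells (ratio 2.58, 1.49 to 4.64). It was found in 12 of 94 and 26 of 103 cells, or 12.8% and 25.2%. Megf10, its paralogue in the same process, gave 6 and 14 UMIs (ratio 2.33, 0.843 to 7.41), too few to tell from 1. Plxna4, a semaphorin receptor that shapes horizontal cell neurites, was at 37.7 and 67.6 CPM (ratio 1.79, 1.12 to 2.93). Plxna2, Sema6a, Sema6d and the adhesion gene Sdk2 all had intervals that include 1.

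Neurite genes split within the list. All 11 were compared, with 4 intervals above 1, 2 below 1 and none past 2-fold (median log2 ratio 0.06, that of all genes). The light neurofilament gene Nefl was at 129 and 248 CPM (ratio 1.93, 1.51 to 2.49) and the medium neurofilament gene Nefm at 195 and 333 CPM (ratio 1.71, 1.39 to 2.10). These 2 genes lie beside each other on chromosome 14. The microtubule-associated genes Mapt, at 149 and 227 CPM (ratio 1.52, 1.20 to 1.94), and Dcx, at 490 and 571 CPM (ratio 1.17, 1.01 to 1.34), were also higher in the mutant. Tubb3, a neuronal tubulin (ratio 0.840, 0.774 to 0.911), and Stmn2 (ratio 0.874, 0.813 to 0.939) were lower. The growth cone gene Gap43 and the dendrite gene Map2 had intervals that include 1.

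Markers of neighbouring cell types were read in the same cells. Of 10 amacrine genes 4 were compared: Prdm13, an amacrine factor downstream of Ptf1a, was lower in the mutant at 268 and 205 CPM (ratio 0.767, 0.620 to 0.949), Barhl2 was higher at 135 and 179 CPM (ratio 1.33, 1.02 to 1.73) as was Lmo4 (ratio 1.39, 1.05 to 1.83), and Tcf4 had an interval that includes 1. The direction of Prdm13 did not hold after thinning (log2 ratio 0.06), at a mitochondrial limit of 5% (0.07) or among Xist cells (0.14), and that of Lmo4 not among Xist cells (-0.11). The later amacrine genes Chat, Slc18a3 and Neurod6 gave no UMI. Among 12 ganglion cell genes 5 were compared, with 1 interval above 1 (L1cam, ratio 1.59, 1.01 to 2.56), and Pou4f3, Thy1 and Irx2 were at 0. The direction of L1cam did not hold after thinning (log2 ratio -0.025). Of 11 photoreceptor genes 2 were compared. Otx2 was at 71.4 and 23.4 CPM (ratio 0.327, 0.181 to 0.566), with 71.2% of its UMIs in the 5 richest cells and a log2 ratio of 0.46 without the doublet calls described below, while Nrl, Nr2e3, Rcvrn, Pde6h and Opn1sw were at 0. The amacrine list summed to 748 and 775 CPM in horizontal cells, close to its 689 and 721 CPM in ganglion cells. A sum does not show which genes carried it, and a Prdm13 UMI was found in 71.3% and 54.4% of horizontal cells.

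Haemoglobin and pigment RNA of the control horizontal cells lay mostly in a few members. In the control, 3 horizontal cells carried 50.8% to 83.7% haemoglobin UMIs and held 98.4% of all haemoglobin UMIs, against a next highest cell of 0.218% and a highest mutant cell of 0.552%. The summed level of the 7 haemoglobin genes was 23826 CPM in control and 421 CPM in mutant cells. Pigment epithelium and melanocyte genes gave 99 UMIs in 12 control cells, 85 of them in 1 cell, and 3 UMIs in 3 mutant cells. In the mutant, haemoglobin UMIs were spread over 93 cells, with 15.4% in the 5 richest. Mesenchyme genes were spread too, over 37 control and 55 mutant cells, with 26.9% and 27.7% of their UMIs in the 5 richest, and summed to 67.5 and 131 CPM. Lens genes summed to 1.30 and 0 CPM and immune genes to 0 and 5.20 CPM. Without the 3 haemoglobin-rich cells, 204 genes were past 2-fold higher and 144 lower in the mutant, a part of higher genes of 58.6% against 68.8% with them.

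A small part of the horizontal cells was in cycle. Cells with UMIs of 4 or more of 20 G2 and mitosis genes were counted as cycling: 9 of 94 control cells (9.57%, interval 4.47 to 17.4) and 10 of 103 mutant cells (9.71%, interval 4.75 to 17.1). By the same count 76.7% and 76.6% of progenitors were cycling, and 5.87% and 6.34% of ganglion cells. The cycling members were deeper, with a median of 15252 and 14728 UMIs against 7322 and 6845 in the others, and held less Lhx1, at 99.2 and 172 CPM against 340 and 404 CPM. Onecut2 was likewise at 1022 and 1264 CPM against 2221 and 2198 CPM. The doublet caller Scrublet marked 5 of the 9 and 4 of the 10, which are all the members it marked. Whether these are dividing horizontal cells or droplets with a progenitor was not tested.

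Neurogenic genes showed how far these few cells carry a comparison. Of 14 genes of the neurogenic step 12 were compared, and over all members 8 had intervals below 1 and none above 1, with 2 past 2-fold lower and a median log2 ratio of -0.53 against 0.06 for all genes. Atoh7, the bHLH factor that opens ganglion cell fate, was at 649 and 435 CPM (ratio 0.670, 0.582 to 0.771) and Neurog2 at 242 and 143 CPM (ratio 0.592, 0.463 to 0.753). Yet 62.0% of the control and 63.1% of the mutant UMIs of the list lay in 5 cells, and 69.2% and 51.1% lay in the cycling members. In the mutant 1 cycling cell alone held 439 of the 1102 UMIs of the list, and in the control the highest cell held 300 of 1592. With the cycling members left out, the summed level was 767 CPM for control and 864 CPM for mutant cells. Then 8 genes were compared, none had an interval below 1, and 2 lay above 1, Atoh7 at 1.52 (1.08 to 2.16) and Neurog2 at 1.75 (1.12 to 2.75), with a median log2 ratio of 0.12. The mutant cells left still included some with 122, 50 and 50 UMIs of the list. The level after this step thus rested in part on few cells too. The direction of Atoh7 and Neurog2 between the libraries thus turned on 9 control and 10 mutant cells.

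**Figure D3:**
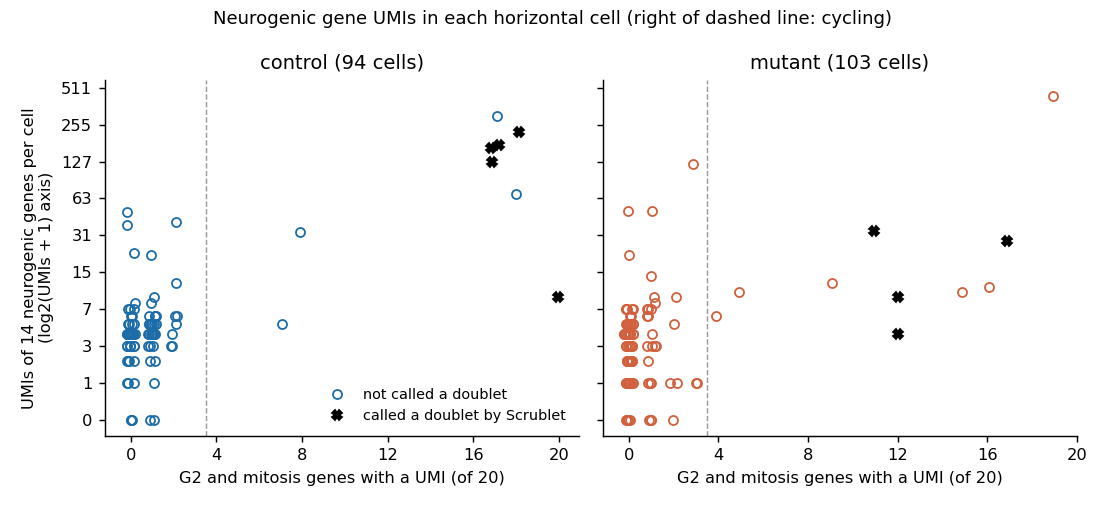
UMIs of the 14 neurogenic genes in each horizontal cell (log2(UMIs + 1) axis) against the number of the 20 G2 and mitosis genes with a UMI in that cell, for 94 control and 103 mutant cells. Cells right of the dashed line were counted as cycling (9 and 10 cells), black crosses mark cells called doublets by Scrublet (5 and 4 cells), and the 5 highest neurogenic counts of the control lay in cycling cells, whereas of the 5 highest in the mutant (439, 122, 50, 50 and 34 UMIs) those of 122, 50 and 50 did not.

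Without the cycling members the ratio of Ptf1a was 0.622 (0.515 to 0.749), that of Zfhx3 0.512, of Zfhx4 0.420 and of Prdm13 0.748, and Calb2 stood at 0.640. Nefl stood at 1.84, Nefm at 1.67, Mapt at 1.45, Megf11 at 2.32 (1.32 to 4.21) and Gria3 at 2.49. By contrast, the intervals of Sall3 (ratio 1.42, 0.833 to 2.45), Dlx1 (0.490, 0.216 to 1.05), Plxna4 (1.59, 0.959 to 2.69) and Dcx (1.14, 0.985 to 1.32) then included 1, as did those of Lmo4 (1.24, 0.922 to 1.68) and L1cam (1.55, 0.966 to 2.53) and that of Lhx1 (1.19, 0.988 to 1.43). Among 13 genes of cell cycle exit 7 were compared, with 1 interval above 1 and 1 below. Cdkn1c, an inhibitor of cyclin-dependent kinases, was at 796 and 386 CPM (ratio 0.485, 0.421 to 0.558), with 42.1% of its UMIs in the 5 richest cells, and kept a ratio of 0.575 (0.495 to 0.666) without the cycling members. Ccnd1, the cyclin of proliferating progenitors, was at 307 and 470 CPM (ratio 1.53, 1.30 to 1.82) over all members. Its level was 1442 and 2012 CPM in the cycling members and 73.6 and 111 CPM in the others. No p53 target gene among 7 compared (of 12) and no dissociation stress gene among 4 compared (of 10) had an interval that excludes 1, with median log2 ratios of -0.45 and -0.29.

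Progenitor and phase genes were carried by few cells too. All 10 progenitor genes were compared, with 1 interval above 1, that of Fgf15, at 70.1 and 148 CPM (ratio interval 1.52 to 2.98), none below 1 and 1 past 2-fold (median log2 ratio 0.29). Without the doublet calls the log2 ratio of Fgf15 was -0.32. The cycling members held 71.7% of their control and 74.6% of their mutant UMIs, and without those members 5 genes were left to compare, none with an interval that excludes 1 and with a median log2 ratio of -0.23. Of 20 S phase genes 17 were compared with 1 interval above 1 (median log2 ratio 0.55), and of 20 G2 and mitosis genes 17 were compared with 1 below 1 (median log2 ratio -0.38). Without the cycling members 8 S phase genes were left, none with an interval that excludes 1 and with a median log2 ratio of 0.07, and no G2 and mitosis gene had enough UMIs.

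Genes with the widest differences between the libraries were sparse. Of those with 50 or more UMIs, an interval that excludes 1 and under 50% of UMIs in 5 cells, and with Xist and the Y-linked genes left out, the 10 highest ratios were those of C1ql1, Cep170b, Nop14, Megf11, Cdh4, Csnk1g1, Triobp, Gria3, Ogdh and Gjc1, from 3.18 down to 2.25. C1ql1, a secreted synaptic organizer, was at 29.9 and 94.9 CPM (ratio 3.18, 1.96 to 5.32), in 15.96% and 30.1% of cells, whereas in progenitors it was at 33.3 and 32.9 CPM and in ganglion cells at 2.62 and 2.85 CPM. In Ptf1a cells without Lhx1 it was at 1.81 and 4.07 CPM, a log2 ratio of 1.17. The centrosome gene Cep170b was at 16.9 and 50.7 CPM (ratio 3.00, 1.57 to 6.13), against 5.15 and 4.83 CPM in progenitors. The cadherin gene Cdh4 was at 29.9 and 74.1 CPM (ratio 2.48, 1.504 to 4.22). Csnk1g1 turned to a log2 ratio of -0.25 after thinning. In progenitors and ganglion cells the log2 ratios of these 10 genes lay between -0.45 and 0.33 except for Megf11, which was at most 0.506 CPM in those classes.

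By the same rule, the 10 lowest ratios were those of Tsix, Ppp1r14a, Palld, Zfhx2, Efnb2, Ptp4a3, Zfhx4, Lgals1, Fam58b and Slc39a7, from 0.212 to 0.464. Tsix, the antisense partner of Xist, was at 67.5 and 14.3 CPM (ratio 0.212, 0.0996 to 0.411). It was lower in mutant progenitors (44.4 and 13.2 CPM) and ganglion cells (26.9 and 10.4 CPM) as well, and among cells that held Xist but no Y-linked transcript (93 control and 28 mutant cells) its log2 ratio was -0.13. The actin-associated gene Palld was at 67.5 and 23.4 CPM (ratio 0.346, 0.191 to 0.602) and the ephrin gene Efnb2 at 54.6 and 20.8 CPM (ratio 0.381, 0.2001 to 0.692). Their log2 ratios were -0.98 and -0.99 among the Xist cells. Of the 20 genes, 13 had a log2 ratio closer to 0 among the Xist cells and 7 one further from 0, all with the same sign. The log2 ratio was -0.22 for Ppp1r14a against -1.62 over all members, -0.11 for Zfhx4 against -1.32, and 0.08 for Ogdh, of the 10 highest, against 1.17. It was -1.85 for Ptp4a3 against -1.34, -2.96 for Slc39a7 against -1.11, 1.96 for Megf11 against 1.37 and 1.68 for Cdh4 against 1.31. Zfhx2, at 54.6 and 20.8 CPM, stood at 109 and 114 CPM in ganglion cells.

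Horizontal cells were next set against other retinal classes of the same library to describe which genes they held at 2-fold or more above every one of them in both libraries. With ganglion cells, photoreceptor precursors, progenitors and the 4 and 6 amacrine cells as the other classes, 51 of 5045 genes (1.01%) passed. With the 329 and 491 Ptf1a cells without Lhx1 in place of that small class, 90 genes (1.78%) passed. The sets shared 25 genes, or 49.0% of the first and 27.8% of the second. Because the cells were chosen on their counts, these are descriptions and were not tested.

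Over the classes with Ptf1a cells, Onecut3, a paralogue of Onecut1 and Onecut2 (chromosome 10, 80494835 to 80517276, plus strand), was at 195 and 227 CPM in horizontal cells and at 9.07 and 10.2 CPM in the next class, 21.5-fold and 22.3-fold apart, although it was not part of the rule. It was found in 60.6% and 67.0% of horizontal cells. Gm32647, a long non-coding RNA gene on chromosome 7 (94042691 to 94709171, plus strand), was at 131 and 177 CPM against 3.63 and 5.60 CPM. Lhx1os was at 90.9 and 101 CPM against 3.63 and 3.31 CPM. It is transcribed on the strand opposite to Lhx1, from a start at 84525660 that lies 5′ of the Lhx1 start, and the promoter windows of both genes share 225 bases on chromosome 11 (84525485 to 84525709), which overlap the Lhx1 sequence shown above. Its reads were not separately checked for strand. The 3′ chemistry keeps the strand, but the counting setting is not given in the sources used here.

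Bmp7, a secreted growth factor (chromosome 2, 172868012 to 172940321, minus strand), was at 63.6 and 65.0 CPM, 16.5-fold and 23.2-fold above the next class. Megf11 was 62.5-fold above the next class in the mutant, and in the control at least 19.2-fold above a class with no UMI of it. Plxna4 was 7.33-fold and 17.7-fold above and Gria3 8.18-fold and 27.0-fold. Tnr, which encodes the matrix protein tenascin-R (chromosome 1, 159523769 to 159931729, plus strand), was at 192 and 199 CPM, 5.64-fold and 11.0-fold above, in 59.6% and 68.0% of cells. Sall3, the LIM-only factor Lmo3, the zinc transporter Slc30a3, the potassium channel Kcnh7, the phosphatase Ptpn5, Zfp804a, Arpp21, Cttnbp2, Susd4, Rasgef1b, Tmem59l, Nxph4, Pmfbp1, Dach2, AI593442, 9530059O14Rik and Gm20649 completed the 25 genes with the widest separation. Gm20649 is a non-coding gene that overlaps Onecut1 on the same strand, so reads of it and of Onecut1, a selection gene, cannot be told apart with certainty.

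**Figure D4:**
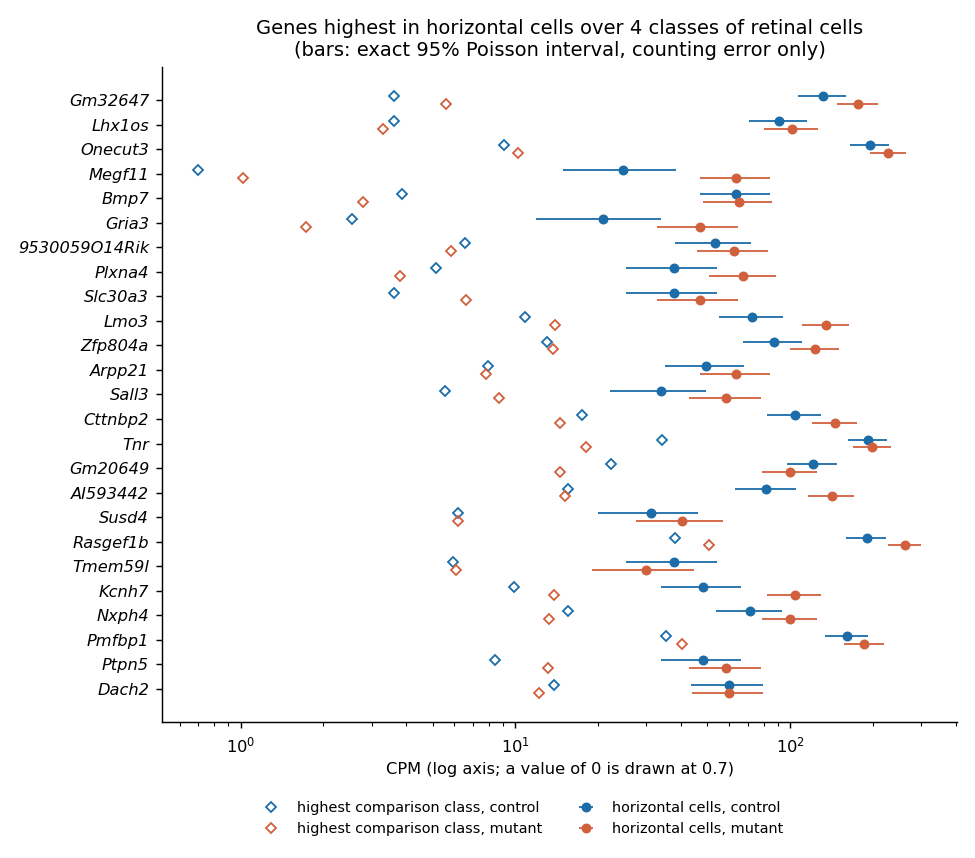
Levels of the 25 genes with the widest separation between horizontal cells (filled circles, exact 95% Poisson interval for counting error) and the highest of 4 other retinal classes (open diamonds), in control and mutant libraries, in CPM on a log axis with a value of 0 drawn at 0.7. Each gene lay at least 2-fold above the next class in both libraries, with Onecut3 at 195 and 227 CPM against 9.07 and 10.2 CPM.

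Against the classes as first set, the sorting receptor Sorcs2 was at 144 and 170 CPM, 6.36-fold and 6.43-fold above the next class, and the splicing regulator Celf4 at 759 and 873 CPM, 5.83-fold and 6.21-fold. Nnat, an imprinted gene of developing neurons, was at 8481 and 8342 CPM, with a median of 67 UMIs per control cell (0 to 160) and 64 per mutant cell (1 to 145), 4.05-fold and 3.75-fold above the next class. Zeb2, at 533 and 734 CPM, and the cannabinoid receptor gene Cnr1, at 179 and 177 CPM, were also among the 25. So were Pgbd5, Ptprd, Tnr, Rab3c, St8sia1, Tfap2a, Onecut3, Nrxn3, Xpr1, Lmo3, Pmfbp1, 2610008E11Rik, D630045J12Rik, Cttnbp2, Jarid2, Gria2, Srgap3 and St18. Only Onecut3, Lmo3, Cttnbp2, Tnr and Pmfbp1 stood in both lists of 25. Of the genes named here, 8 (D630045J12Rik, Gria2, Jarid2, Lmo3, Pmfbp1, St18, St8sia1 and Tfap2a) had a ratio below 1 in at least 1 library when cells with over 5% mitochondrial UMIs, cells over 30000 UMIs or cells without Xist were left out. In these ratios a class with no UMI counted as holding 3. The small amacrine class, for example, held no UMI of Pmfbp1 in either library. Such a ratio need not mean that another class was measured at a higher level.

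By group, separation over the classes with Ptf1a cells was found in fate factors (Onecut3, Tfap2a and Sall3, 3 of 10 tested), receptors (Gria2, Gria3 and Gabra2, 3 of 6), spacing and arbor genes (Megf11, Plxna4 and Sema6d, 3 of 6) and neurite genes (Dcx, 1 of 11), where 90 of all 5045 genes (1.78%) passed. None of the amacrine, ganglion, photoreceptor, progenitor or neurogenic genes tested passed. Cells with Onecut2 and Tfap2b but no Lhx1 (301 control and 443 mutant cells) held Ptf1a at 664 and 502 CPM. Those cells held Prox1 at 106 and 91.1 CPM and Onecut3 at 17.2 and 24.0 CPM, below the horizontal cells in both. Thinned to 2000 UMIs, horizontal cells had a median of 1179 and 1189 genes, against 1106 and 1108 in ganglion cells, 1136 and 1130 in progenitors and 1138 and 1120 in Ptf1a cells without Lhx1.

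The motifs shown above were also counted in the promoters of the 90 genes. Of 65 genes with a RefSeq promoter, which had 111 promoter windows, 6 windows (5.41%) held the Onecut core and 27 (24.3%) the AP-2 core. Of 8317 windows of genes compared between the libraries in horizontal cells, 3.68% and 25.1% held them, and of all 32851 windows 7.54% and 16.6%. Per gene, 6 of the 65 (9.23%) held the Onecut core and 21 (32.3%) the AP-2 core, against 4.40% and 29.3% of the genes compared between the libraries and 8.63% and 18.5% of all genes with a promoter. For the 51 genes, 53 windows were found, with none and 11 (20.8%). A match is a run of letters and not a bound site.

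The horizontal cells were not uniform, and Ptf1a separated them in both libraries. Members with a Ptf1a UMI numbered 66 of 94 control and 55 of 103 mutant cells. They were deeper than the rest, with medians of 7857 and 6624 UMIs for the control library and 7377 and 6202 for the mutant, and in sparse counts a cell without a UMI may still hold the transcript, so the split is a coarse one. Of 121 other genes described above with enough UMIs, 9 (7.44%) were higher and 19 (15.7%) lower in cells with Ptf1a in both libraries with intervals that exclude 1, against 1.38% and 0.99% of all 8145 genes compared in this way. Many of the 121 had been named for their values in these cells, so nothing is read from that gap. With the cycling members left out (60 and 25 control cells, 51 and 42 mutant cells), 10 of 121 were higher and 18 lower in both, against 2.02% and 1.30% of 7435 genes, and 7 and 16 of these were the same genes as before. Values below are from the members that were not cycling.

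Cells with Ptf1a held more Prdm13, at 357 against 125 CPM in the control (ratio 2.85, 1.77 to 4.85) and 315 against 92.2 CPM in the mutant (ratio 3.42, 2.17 to 5.60). Cdkn1c was at 999.5 against 139 CPM (ratio 7.21, 4.67 to 11.8) and 702 against 88.2 CPM (ratio 7.96, 5.15 to 12.9). Calb2 was at 207 against 19.8 CPM, on 3 UMIs (ratio 10.5, 3.48 to 51.6), and 150 against 36.1 CPM (ratio 4.14, 2.03 to 9.53). Thus the calretinin gene, Cdkn1c and an amacrine factor were carried mainly by the cells with Ptf1a. Zfhx3 was at 150 and 80.1 CPM in cells with Ptf1a, against 1 and 7 UMIs in cells without, and Dlx1 gave 23 and 11 UMIs in cells with Ptf1a and 0 in cells without. Tubb3 (ratios 1.74 and 1.59) and Rorb (ratios 1.29 and 1.46) were higher too. Atoh7, at ratios of 2.70 and 4.54, and Hes6, at 1.88 and 4.97, had intervals above 1 in both libraries only with the cycling members left out. Over all members their ratios were 2.12 and 1.51 in the control, with intervals above 1, and 0.218 and 0.776 in the mutant. Among members that were not cycling, the cells with most UMIs of the neurogenic list all held Ptf1a. They had 49, 40 and 38 UMIs of the list in the control and 122, 50 and 50 in the mutant. The ratios of Atoh7 and Hes6 may thus rest on few cells.

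Of the 25 genes most separated from the classes with Ptf1a cells, 11 were lower in cells with Ptf1a in both libraries, none was higher in both, and 14 were neither. Their choice by low values in Ptf1a cells without Lhx1 bears on that direction, and Lhx1 and Prox1 were selection genes. Onecut3 was at 389 CPM without and 160 CPM with Ptf1a in the control (ratio 0.411, 0.289 to 0.587) and at 369 and 150 CPM in the mutant (ratio 0.405, 0.285 to 0.571). Lhx1 was at 449 and 306 CPM (ratio 0.681, 0.508 to 0.922) and at 594 and 278 CPM (ratio 0.468, 0.361 to 0.605). Prox1 was at 495 and 279 CPM (ratio 0.564, 0.422 to 0.758) and at 654 and 425 CPM (ratio 0.650, 0.519 to 0.813). Sall3 (ratios 0.115 and 0.424), Gria3 (0.0848 and 0.319), Megf11 (0.181 and 0.435), Plxna4 (0.214 and 0.499), Bmp7 (0.404 and 0.436), Kcnh7 (0.262 and 0.492), Dcx (0.532 and 0.691), Map2 (0.686 and 0.592) and Gap43 (0.714 and 0.737) went the same way. Tfap2a and Onecut1 had intervals that include 1 in both libraries, and the GABA genes Gad2 (ratios 1.51 and 1.36) and Slc32a1 (1.45 and 1.02) had as well.

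The mutant library held fewer cells with a Ptf1a UMI, so the libraries were also set side by side within each set of cells, as values with no test. Among cells with Ptf1a, Prox1 was at 279 and 425 CPM in control and mutant, and among cells without it at 495 and 654 CPM. Megf11 was at 14.4 and 45.4 CPM with Ptf1a and at 79.2 and 104 CPM without, on 7 to 26 UMIs. Cdkn1c was lower in the mutant in both sets, at 999.5 and 702 CPM with Ptf1a and at 139 and 88.2 CPM without. Nefl was at 146 and 155 CPM with Ptf1a and at 152 and 445 CPM without, and Mapt at 129 and 211 CPM with and at 277 and 281 CPM without. The values of Prox1, Megf11, Cdkn1c, Nefl and Mapt thus differed in the same direction in both sets, by little for Nefl with Ptf1a and for Mapt without. Nefm did not, at 207 and 176 CPM with Ptf1a and at 264 and 658 CPM without. The values of Sall3 (14.4 and 37.4 CPM with, 125 and 88.2 CPM without) and Plxna4 (22.6 and 48.1 CPM with, 106 and 96.2 CPM without) were higher in the mutant among cells with Ptf1a and lower among cells without. Sall3 rested on 7 and 14 UMIs with Ptf1a and on 19 and 22 without. Plxna4 rested on 11 and 18 UMIs with Ptf1a and on 16 and 24 without. Whether the sets of cells differ in direction was not tested. Calb2 (207 and 150 CPM with, 19.8 and 36.1 CPM without) and Zfhx3 (150 and 80.1 CPM with, 1 and 7 UMIs without) were lower in the mutant among cells with Ptf1a. Among cells without it, Calb2 rested on 3 and 9 UMIs. The counts of both genes there are too few to give a direction. Onecut3 was at 160 and 150 CPM with Ptf1a and at 389 and 369 CPM without.

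**Figure D5:**
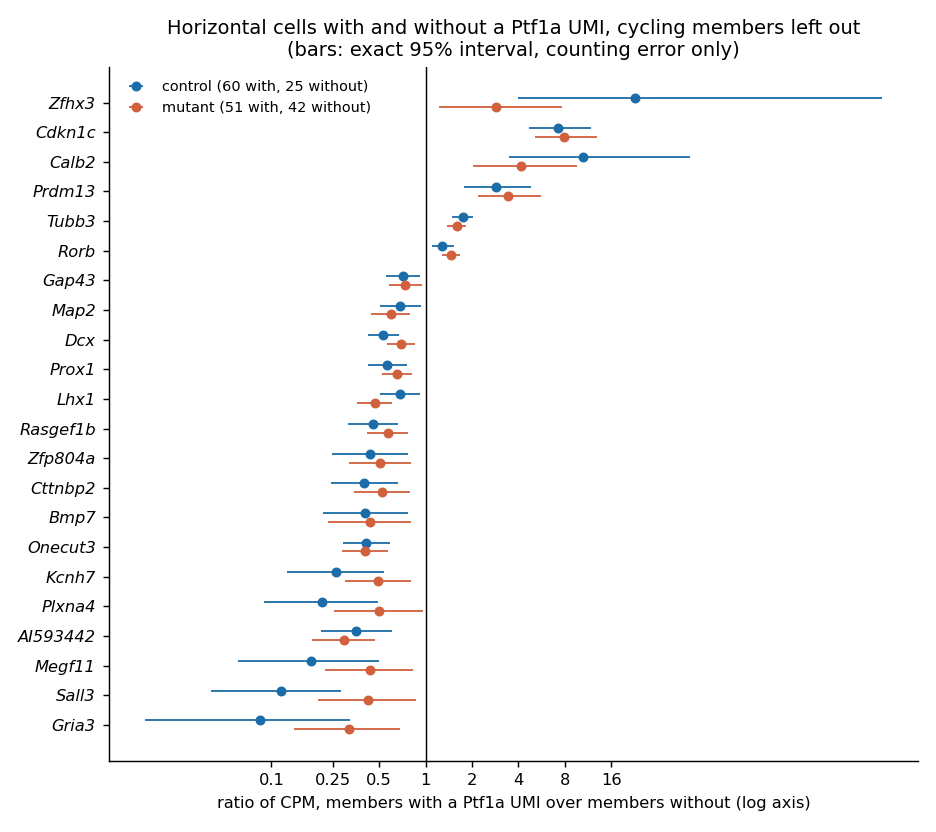
Ratio of CPM in horizontal cells with a Ptf1a UMI over those without, in each library, cycling members left out (60 and 25 control cells, 51 and 42 mutant cells; log axis, bars for exact 95% intervals of counting error). Zfhx3, Cdkn1c, Calb2 and Prdm13 lay above 1 and Onecut3, Lhx1 and Prox1 below 1 in both libraries, at 0.411 and 0.405 for Onecut3.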

How the data were processed

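The control and the mutant library were grouped by the labelled genotype. What the authors deposited are UMI counts, 1 value for each gene in each cell, not normalized. Reads had been aligned to GRCm38 (mm10); the matrix headers name Cell Ranger 3.1.0, whereas the processing notes name Cell Ranger 7.1.0 and Seurat 4.1.1. The barcodes (13017 and 13880) equal the numbers of cells the study states, before any filter. Its methods word the UMI limit of 2000 as an upper one, which with the other filters would leave 2220 and 2310 cells. Here 2000 was used as a lower limit.

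Members, gene lists and comparisons were chosen with earlier results of these data known. UMIs were summed over the members of a library and given as CPM (per 1000000 UMIs). Intervals are exact 95%: Poisson for CPM, Clopper-Pearson for shares, conditional binomial for ratios. The last treats counts as having no upper bound, which makes it too wide for ratios of large shares. Ratios needed 20 UMIs over both libraries, enrichment 50 UMIs, and a 0 was set to 3 counts as a floor per class. Other classes were progenitors (Hes1 and a further gene), ganglion cells (Pou4f2 and Isl1), photoreceptor precursors (Crx and Otx2) and amacrine cells (an AP-2 gene, Pax6 and Elavl4), all without Lhx1, and erythroid cells (20% or more haemoglobin UMIs), which could hold Lhx1 and included 3 control members. Named genes were the list members, the 25 most enriched genes found in 10% or more of the members, and the 10 highest and 10 lowest ratios among genes with 50 or more UMIs, an interval that excludes 1 and under 50% of UMIs in 5 cells, with Xist and the Y-linked genes left out. Doublets were called with Scrublet in scanpy 1.11.5 at a threshold of 0.2, set after its automatic threshold had called no mutant barcode. It called 366 (3.06%) and 395 (3.03%) barcodes, which were kept. Other tools were numpy 2.4.6 and scipy 1.17.1. A few list genes, and values that rest on them, are not reported here. The scripts were tested on simulated data.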

Additional observations from a re-analysis of the deposited data

Results flagged for a closer look

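A UMI of a Y-linked gene (Ddx3y, Eif2s3y, Kdm5d or Uty), data outside the comparisons, was found in 55.3% of mutant horizontal cells (57 of 103, interval 45.2 to 65.1) and in 0 of 94 control cells, so the pools differed in sex composition as well as in genotype. Cells that held Xist and lacked any Y-linked UMI numbered 93 in the control and 28 in the mutant, and the values among these cells alone are given with the alternatives.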

How the results depend on the processing

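There was 1 library per genotype, so no result has a replicate check, and few UMIs per cell limit single genes most. No paired analysis was possible because the labels give 1 library per genotype and no replicate numbers. Of 61 values of the main comparisons under alternatives, 49 stayed near the reported one, 12 moved and none turned. The ratio of horizontal cell shares ranged from 0.773 to 1.07, and the ratio of Ptf1a-positive shares from 0.554 among Xist cells to 0.963 at a mitochondrial limit of 5%, below 1 throughout. Removal of members with genes of neighbouring cell types is not reported here. Where values turned the cause was not tested. The ratio of cycling shares was 0.369 among Xist cells, on 1 mutant cell, against 1.01. The 51 enriched genes became 355 over the mean of the classes, 90 with the Ptf1a class, 23 at a mitochondrial limit of 5% (26 and 30 cells), 16 without cells over 30000 UMIs and 26 among Xist cells, and the 90 became 24 at the mitochondrial limit and 52 among Xist cells. The limit of 30000 UMIs removed no horizontal cell (94 and 103 cells kept), so it changed the other classes only. Under it the 90 became 88. The 378 genes past 2-fold became 61 at 50 UMIs, 1375 with no minimum, 223 after thinning (125 higher, 98 lower) and 856 among Xist cells (356 higher, 500 lower), with 28 mutant cells.

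Of 1373 gene values 20 turned direction. The log2 ratio with Scrublet calls removed was 0.50 for Atoh7, 0.22 for Hes6, 0.23 for Neurog2, 0.46 for Otx2 and -0.32 for Fgf15. With cycling members removed it was 0.60 for Atoh7, 0.12 for Hes6, 0.80 for Neurog2 and 0.23 for Gadd45a. After thinning it was 0.22 for Btg2, -0.25 for Csnk1g1, -0.025 for L1cam and 0.061 for Prdm13, which stood at 0.070 at the mitochondrial limit of 5% and 0.14 among Xist cells, where Lmo4 was at -0.11. Without the haemoglobin-rich members it was 0.50 for Hba-a1, 0.17 for Hba-a2, 0.048 for Hbb-bs and 0.28 for Hbb-bt, and the median of the haemoglobin genes was 0.22.

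In the enrichment values a 0 in a class counted as 3 UMIs. Of 384 enrichment values, as the smaller log2 ratio over the classes as first set, 28 fell short of 2-fold and 14 turned below 0. At the mitochondrial limit of 5% these were D630045J12Rik at -0.024, Gria2 at -0.024, Lmo3 at -0.85 and St18 at -1.74. Without cells over 30000 UMIs they were D630045J12Rik at -0.039, Gria2 at -0.13, Jarid2 at -0.72, Pmfbp1 at -0.0094 and St18 at -0.17. Among Xist cells they were D630045J12Rik at -0.80, Lmo3 at -0.48, St18 at -1.22, St8sia1 at -0.58 and Tfap2a at -0.10.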
